A study of Caenorhabditis elegans with 8 samples.

Results

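The mixed-embryo RNA of this Caenorhabditis elegans series came as 4 of 8 libraries, and these 4 differed from each other more by which library of a genotype was read than by genotype. N2 replicate 2 and FAS43 replicate 1 lay on one side, named late-shifted here as a working name, and N2 replicate 1 and FAS43 replicate 2 lay on the other, named early-shifted. The sides were chosen by the measured values themselves, from the scores on the first principal component of log2 CPM (read counts brought to a common library size with TMM factors). These scores were -52.2 for N2 replicate 2 and -55.3 for FAS43 replicate 1, against 70.9 for N2 replicate 1 and 36.5 for FAS43 replicate 2. Every difference between the sides is therefore a description with no test, and the age of the embryos in each library was not tested.

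N2 is the laboratory wild type. FAS43 lacks normal copies of the genes for the histone variant H3.3: it carries his-72(tm2066) and his-69&his-70(uge44) on chromosome III, his-74(uge18) on chromosome V and his-71(ok2289) on the X chromosome. The series set out to ask what H3.3 does in these worms, with mixed-stage embryos and L1 larvae (the first larval stage) of both strains grown at 20 °C, in 4 groups of 2 libraries. Total RNA was extracted with Trizol, 1000 ng went into stranded mRNA libraries, and 50-base reads were sequenced. The labels leave it unsaid whether the replicates of a group were separate cultures, so the p-values rest on the variation among libraries whatever its source, culture or technical handling. The embryo totals were 24976442 counts in N2 replicate 2, 17408914 in FAS43 replicate 1, 30127179 in N2 replicate 1 and 27254898 in FAS43 replicate 2. Both early-shifted totals were thus larger than both late-shifted totals. Ribosomal RNA genes took 3.73% of the counts in N2 replicate 2 and 0.748% in FAS43 replicate 1, the highest and the lowest share of the 4, and both of these libraries were late-shifted. The part of depth and of ribosomal RNA in the results was not tested.

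A worm embryo starts with RNAs that the mother loaded into the egg, and many of them encode RNA-binding proteins that set up the germline and the founder cells. The embryo's own genome is then switched on in waves, first for short-lived regulators that specify lineages. After cell division slows, the embryo elongates and its cells make the products of differentiated tissues: sarcomere proteins, cuticle collagens, synaptic proteins and digestive enzymes. A culture of mixed embryos holds all of these stages at once.

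The library correlations were computed from the same log2 CPM values as the sides, so they describe the split and do not test it. On log2 CPM over 13617 tested genes, Pearson's r across genes was 0.983 between the early-shifted libraries and 0.961 between the late-shifted libraries. Across the sides r was highest, at 0.957, between N2 replicate 2 and FAS43 replicate 2, close to the value between the late-shifted libraries. It was lowest, at 0.937, between the N2 replicates, which share a genotype. The first component held 66.5% of the variance. The second held 23.2% and set the late-shifted libraries apart from each other, with scores of 44.5 for N2 replicate 2 and -45.97 for FAS43 replicate 1, while the early-shifted libraries scored -7.92 and 9.38. The late-shifted libraries were thus less alike than the early-shifted libraries.

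Stage markers fitted the working name in part. Of 8 late embryo markers, 7 were higher in the late-shifted library of N2 and 6 in that of FAS43, and of 7 mid embryo markers, 3 and 4 were. Over all 13617 genes, 7492 were higher in the late-shifted library of N2 and 7194 in that of FAS43. Both late-shifted values lay above both early-shifted values in 4449 of these genes, and below both in 3536. The body wall muscle myosin unc-54 had 691.8 CPM in N2 replicate 2 and 485.5 in FAS43 replicate 1, against 195.3 in N2 replicate 1 and 181.3 in FAS43 replicate 2. Its late values lay above both early values, and the same held for the neuropeptide gene flp-1, with 7.19 and 14.1 CPM in the late-shifted N2 and FAS43 libraries against 1.53 and 4.63. The synaptic vesicle gene snb-1 went the other way in both genotypes, with 170.6 and 207.7 CPM late against 335.8 and 266.3 early. Of 9 early embryo markers tested, 2 were higher in the late-shifted library of N2 and 1 in that of FAS43, but the maternal markers among them ran differently in the genotypes, as given below. Genes known for larval molting and feeding, listed to look for hatched larvae, were higher late: 16 of 16 tested members within N2 and 13 of 16 within FAS43, with median log2 differences of 1.29 and 0.64. They summed to 2466 CPM in N2 replicate 2 and 1602 in FAS43 replicate 1, against 1375 in N2 replicate 1 and 1034 in FAS43 replicate 2. In the L1 comparison given below, 2 of the 16 were higher in L1 than in embryos and 4 lower, with a median of -0.61. The list therefore did not set larvae above embryos in this series. Many of its members are also in lists below: ptr-4 and ptr-18 are patched-related, qua-1 is hedgehog-related, and col-10 and dpy-13 are cuticle collagens. The precuticle list shares fbn-1 and mlt-10, the intestine list sodh-1 and the lineage regulators nhr-23. The part of hatched larvae in the cuticle, neuronal and intestinal differences was not tested. Defining markers of adult contents were near 0: vit-1 and vit-5, yolk protein genes of the adult intestine, reached at most 1.27 CPM in any library. The 6 tested sperm genes (ssq-2, spe-9, spe-15, spe-26, spe-41 and fer-1) summed to 20.3 CPM in N2 replicate 2, 13.2 in FAS43 replicate 1, 12.6 in N2 replicate 1 and 15.5 in FAS43 replicate 2.

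At least 2-fold higher levels in the late-shifted library of both genotypes were found for 1670 of 13617 genes (12.3%), and at least 2-fold lower levels for 161 (1.18%). Taken alone, the N2 pair gave 3212 genes at least 2-fold higher and 2297 lower, and the FAS43 pair gave 2281 higher and 1653 lower. The median log2 difference over all genes was 0.15 within N2 and 0.06 within FAS43. Scaling by DESeq2 size factors in place of TMM shifted the differences within N2 by -0.11 and those within FAS43 by -0.05. In bulk RNA, fewer cells of a type and less RNA per cell cannot be told apart. A gene was in the deposited table when 2 or more libraries held 10 or more of its counts, and it could enter through the late-shifted libraries alone: 290 of the 1670 higher genes had under 10 counts in both early-shifted libraries. Genes with low levels carried most of the higher side. Among the 9176 genes with a mean of at least 5 CPM, 532 were higher and 124 were lower.

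Among the 12 genes with the largest differences shared by both genotypes on the higher side were 3 transthyretin-like genes, which encode secreted proteins, and 2 hedgehog-related genes. For clec-230, which encodes a C-type lectin, the values were 9.87 CPM in N2 replicate 2 and 22.8 in FAS43 replicate 1, against 1.19 in N2 replicate 1 and 1.88 in FAS43 replicate 2. The transthyretin-like gene ttr-17 followed with 24.5 and 55.3 CPM in the late-shifted N2 and FAS43 libraries and 2.94 and 8.35 in the early-shifted ones. The sides did not overlap in any of the 24 genes named at either end, which the naming rule favours. The other transthyretin-like genes of this group were ttr-15 and ttr-46, and the hedgehog-related genes were grl-4 and wrt-8. The cuticle collagen gene col-113, the caenacin antimicrobial peptide gene cnc-4 and the cystatin gene cpi-1, a cysteine protease inhibitor, were also among the 12. They were joined by dod-19, cex-1, which encodes a calcium-binding calexcitin, and catp-3, which encodes a cation-transporting ATPase. The log2 differences of the 12 ran from 2.41 to 3.53 within N2 and from 2.28 to 3.54 within FAS43.

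**Figure D1:**
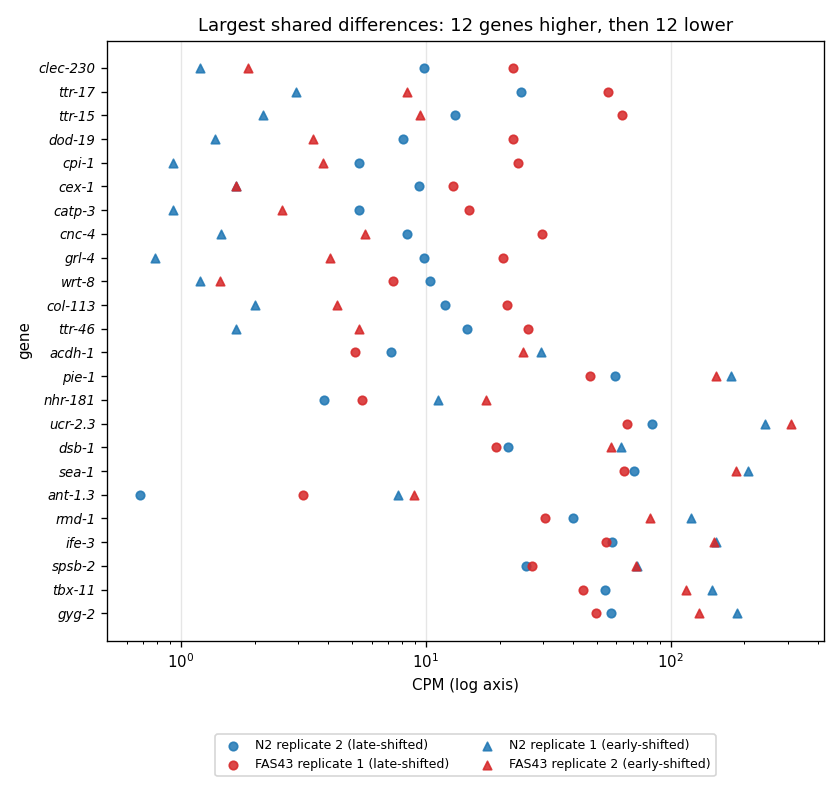
CPM on a log axis of the 12 genes with the largest shared higher level and the 12 with the largest shared lower level in the late-shifted libraries; each point is 1 library, blue for N2 and red for FAS43, circles for late-shifted and triangles for early-shifted. Circles and triangles do not overlap in any of the 24 genes, which were chosen for this difference.

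The 12 genes with the largest shared lower levels included regulators of the germline and the early embryo and genes of metabolism. The maternal germline gene pie-1, whose zinc finger protein keeps transcription silent in germline blastomeres, had 59.4 CPM in N2 replicate 2 and 46.6 in FAS43 replicate 1, against 176.5 in N2 replicate 1 and 153 in FAS43 replicate 2. The acyl-CoA dehydrogenase gene acdh-1 had 7.23 and 5.14 CPM late against 29.6 and 24.9 early in N2 and FAS43. For tbx-11, a T-box factor gene, the late values were 54.1 and 43.7 CPM and the early values 147.6 and 115.6. In each of these 3 genes the early-shifted libraries had over 2 times the level of the late-shifted ones. The list also held sea-1, a T-box gene that counts as an autosomal signal in sex determination, dsb-1, which is needed for meiotic double-strand breaks, ife-3, a cap-binding translation factor, and rmd-1, a regulator of microtubule dynamics. Mitochondrial carriers and enzymes were represented by ant-1.3 and ucr-2.3, glycogen synthesis by gyg-2, and the remaining genes were the nuclear receptor gene nhr-181 and spsb-2. Their log2 differences ran from -3.36 to -1.41 within N2 and from -2.26 to -1.39 within FAS43.

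Muscle genes had positive medians in both genotypes. Of 43 muscle sarcomere and attachment genes, 20 were at least 2-fold higher in both genotypes and 0 lower, beside 12.3% and 1.18% of all genes, and the median log2 difference was 1.36 within N2 and 0.97 within FAS43. The pharyngeal myosin gene myo-1 had 53.0 CPM in N2 replicate 2 and 52.8 in FAS43 replicate 1, against 7.37 in N2 replicate 1 and 17.6 in FAS43 replicate 2. The twitchin gene unc-22, which encodes a giant protein of the thick filament, had 98.6 and 82.9 CPM late against 25.9 and 24.4 early. Troponin genes behaved alike: tnt-2 had 11.7 and 11.3 CPM late against 1.01 and 3.87 early, and tnc-2 had 14.5 and 25.08 against 3.61 and 7.15. For these 4 genes the sides did not overlap. The 4 were named by level or by size of difference. Of all 13617 genes, 4449 had both late-shifted values above both early-shifted ones. Not every muscle gene differed. The actin gene act-4, whose counts may be shared with near-identical actin genes, had log2 differences of 0.85 within N2 and 0.00 within FAS43, and the integrin gene pat-3 had 0.54 and -0.73.

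In the epidermis, of 96 tested cuticle collagen genes, 43 were higher and 2 lower past 2-fold in both genotypes, with medians of 1.55 within N2 and 0.88 within FAS43. Of the 96, 6 had under 10 counts in both early-shifted libraries, beside 409 of all 13617 genes. The same held for 3 of 57 precuticle and 3 of 41 hedgehog-related genes, given below. The collagens with the largest shared differences had low early levels. With 1 and 4 early counts, col-12 was in the table through the late-shifted libraries alone, which favours a difference, and it had 0.839 and 2.22 CPM in the late-shifted N2 and FAS43 libraries against 0.0372 and 0.16 in the early-shifted ones. By contrast, the embryonic collagen genes dpy-17 and sqt-3 had log2 differences of 0.58 and 0.85 within N2 and 0.39 and 0.21 within FAS43. The furrow collagens, which lie in the annular furrows of the cuticle, had 0 of 5 members past 2-fold in both, with dpy-7 at 273.3 and 223.6 CPM late against 161.6 and 143.5 early. Among 57 genes of the precuticle and of molting, 12 were higher, and the cuticlin gene cut-3 had 378.9 and 351.4 CPM in the late-shifted N2 and FAS43 libraries against 49.5 and 113.4 in the early-shifted ones. Of 10 pharynx cuticle genes, which line the feeding organ, 7 were higher, with medians of 2.66 within N2 and 1.30 within FAS43. Hedgehog-related genes, many of them made in the epidermis, had 19 of 41 members higher, and the patched-related genes, relatives of the hedgehog receptor gene, had 4 of 27, a share near the 12.3% of all genes. The patched-related medians were still 1.36 within N2 and 0.77 within FAS43, against 0.15 and 0.06 over all genes, with 27 and 23 of the 27 above 0. The hedgehog-related genes grl-21 and grd-14 were both high in FAS43 replicate 1, at 16.6 and 11.6 CPM, while N2 replicate 2 had 1.56 and 2.12.

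**Figure D2:**
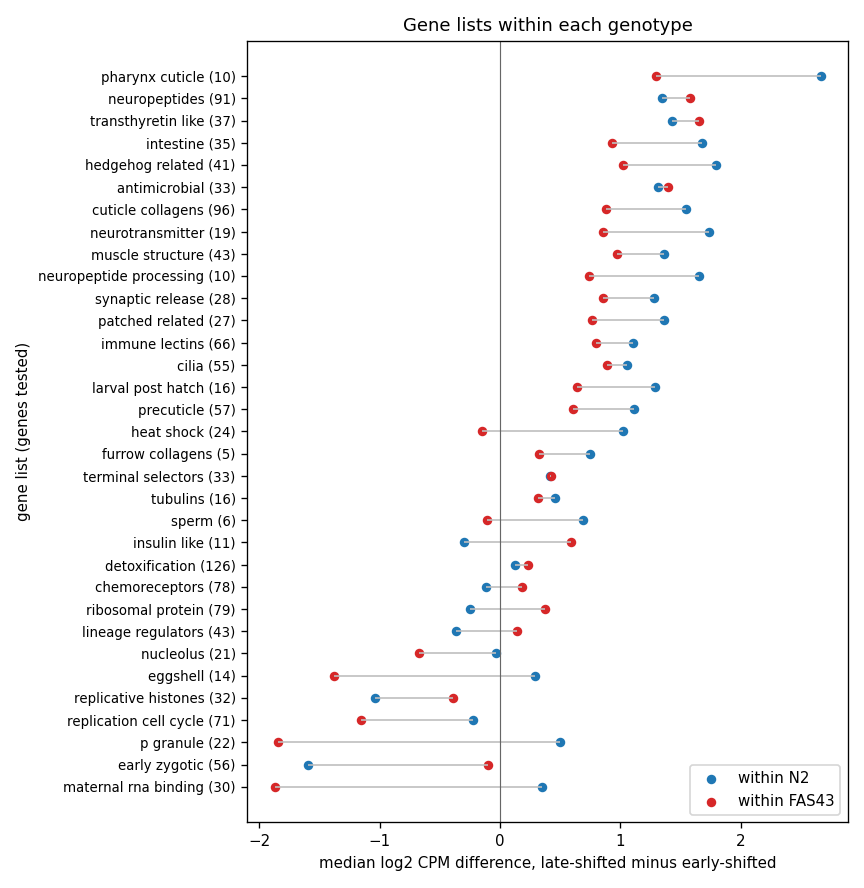
Median log2 CPM difference, late-shifted minus early-shifted, of each gene list within N2 (blue) and within FAS43 (red), with the number of genes tested in brackets and a grey line joining both medians. Tissue lists such as muscle structure (1.36 and 0.97) have both medians above 0, while maternal RNA-binding genes (0.35 and -1.87) and early zygotic genes (-1.60 and -0.10) have their medians far apart.

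Neuropeptide genes had 55 of 91 members at least 2-fold higher in both genotypes and 0 lower, with medians of 1.35 within N2 and 1.58 within FAS43. At a mean of at least 5 CPM, a filter chosen after seeing the data, their median over both pairs was 0.60 in place of 1.57. Their summed level was 322.7 CPM in N2 replicate 2 and 302.7 in N2 replicate 1, and 684.6 and 316.3 in FAS43 replicates 1 and 2, so the sum differed little within N2. Of the 91 genes, 13 had under 10 counts in both early-shifted libraries and were in the table through the late-shifted libraries alone. The gene flp-11, which encodes sleep-promoting neuropeptides and is not one of the 13, had 4.64 CPM in N2 replicate 2 and 7.17 in FAS43 replicate 1, against 0.596 in N2 replicate 1 and 1.56 in FAS43 replicate 2. The secreted peptide gene snet-1, one of the 13 with 3 and 9 early counts, had 1.24 and 4.34 CPM late against 0.112 and 0.359 early. In both genes FAS43 replicate 1 was the highest library. The neuropeptide-like gene nlp-31, an antimicrobial peptide gene of the epidermis, had sides that overlapped, with 72.4 and 166 CPM late against 133.1 and 103.5 early.

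Synaptic release genes had 10 of 28 members higher, with medians of 1.28 and 0.86 within N2 and FAS43. The synaptotagmin gene snt-1, the calcium sensor of vesicle fusion, had 9.67 CPM in N2 replicate 2 and 12.1 in FAS43 replicate 1, against 1.79 and 3.51 in the early-shifted libraries. Vesicle traffic gene rab-3 had 16.7 and 18.1 CPM late against 4.21 and 5.47 early. Neurotransmitter synthesis and transport genes had 8 of 19 members higher: the glutamate transporter gene eat-4 had 1.60 and 2.59 CPM late against 0.298 and 0.759 early, and the dopamine transporter gene dat-1 had 1.96 and 1.51 against 0.261 and 0.439. Ciliary genes, which serve the sensory endings, had 15 of 55 members higher, while the transcription factors that specify neuron identity had 2 of 33, a share below the 12.3% of all genes. Those were unc-4, a motor neuron homeobox gene, and lin-14, a timing gene of larval development, which had 122.3 and 69.1 CPM late against 21.3 and 30.9 early. The medians of the 33 were 0.41 within N2 and 0.42 within FAS43, against 0.15 and 0.06 over all genes. The shares were not matched for level: among the 9176 genes with a mean of at least 5 CPM, 532 were higher. Chemoreceptors had 11 of 78 tested members higher and 3 lower, and 1322 such genes are in the annotation. The higher share lay close to the 12.3% of all genes. Of the 78, 8 had under 10 counts in both early-shifted libraries and were in the table through the late-shifted libraries alone.

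Intestinal genes and genes of defence were mixed. Of 35 intestine genes, 12 were higher past 2-fold in both genotypes, among them the aspartyl protease gene asp-6 with 44.3 and 63.8 CPM late against 5.51 and 15.4 early, and the lysozyme gene lys-1 with 17.3 and 40.7 against 5.21 and 8.90. Of the 35, 3 were in the table through the late-shifted libraries alone. Of 37 transthyretin-like genes, 22 were higher, and of 33 lysozyme, saposin and antimicrobial peptide genes, 18. In these lists 6 and 5 members were in the table through the late-shifted libraries alone. The latter list shares lys-1, lys-2, lys-4 and lys-8 with the intestine list. The summed level of the transthyretin-like genes went the other way within N2, with 2047 CPM late against 3820 early, and was 3315 against 2767 within FAS43. The largest part of it was ttr-50, which had 1526 and 2454 CPM late against 3519 and 2410 early in N2 and FAS43. The saposin-like gene spp-5 had 24.2 and 36.7 CPM late against 3.91 and 9.62 early. C-type lectin genes had 19 of 66 members higher, and 9 of the 66 were in the table through the late-shifted libraries alone. Their summed level, however, was lower in the late-shifted libraries, at 4107 CPM in N2 and 6358 in FAS43 against 9622 and 7346. Most of this sum came from clec-87, clec-266 and clec-88. Of these, clec-87, which encodes a chondroitin proteoglycan, had 1396 and 2405 CPM late against 4789 and 3586 early. Detoxification genes had 17 of 126 members higher, a share near that of all genes.

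**Figure D3:**
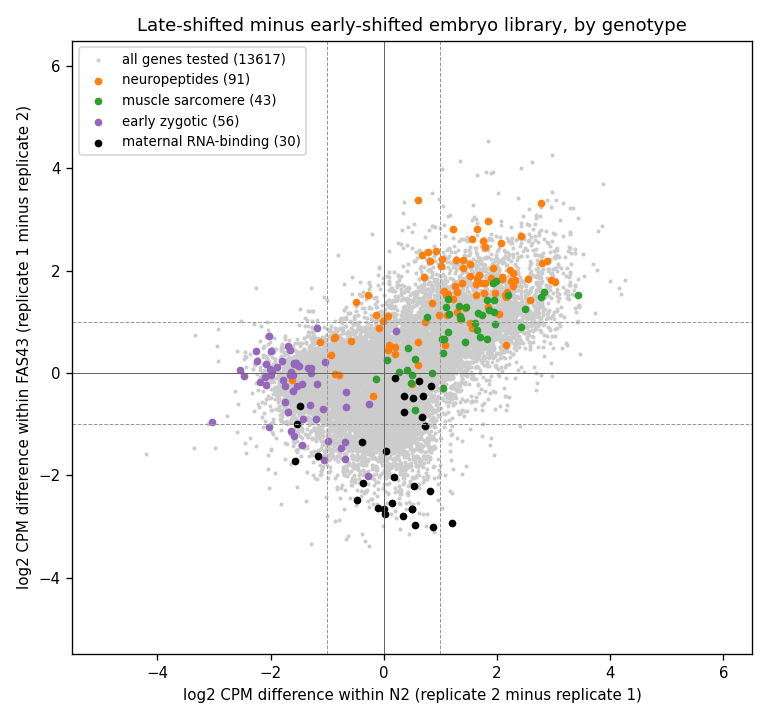
Log2 CPM difference of the late-shifted minus the early-shifted library within N2 (horizontal) against that within FAS43 (vertical), 1 point for each of 13617 genes, with 4 gene lists in colour and dashed lines at 2-fold. Muscle and neuropeptide genes lie mostly above 0 on both axes, and all but 1 of the early zygotic genes lie left of 0. All 30 genes of the maternal RNA-binding list lie below 0 on the vertical axis, 22 of them right of 0 on the horizontal axis.

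The genes of early development did not follow a single pattern. Maternal RNA-binding regulators were lower in the late-shifted library of FAS43 but not of N2. The list of 30 also holds rme-2, a yolk receptor gene, and mbk-2, a kinase gene. All 30 were tested, 0 of 30 were higher in the late-shifted FAS43 library and 22 of 30 were higher in the late-shifted N2 library. The median log2 difference was -1.87 within FAS43 and 0.35 within N2, so the working name did not describe these genes in N2. The zinc finger gene mex-5, which sets up anterior-posterior polarity in the zygote, had 244.3 CPM in N2 replicate 2 and 133.4 in N2 replicate 1, but 55.8 in FAS43 replicate 1 and 450.7 in FAS43 replicate 2. The values of spn-4, a translational regulator of early blastomeres, were 310.6 and 304.5 CPM in the late-shifted and early-shifted N2 libraries, and 95.4 and 647.9 CPM in FAS43. The oocyte maturation gene oma-1 had 122.7 and 131.1 CPM in N2 and 41.96 and 262.4 in FAS43. In all 3 genes FAS43 replicate 2 was highest, FAS43 replicate 1 lowest, and the N2 libraries lay between them.

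A smaller set of maternal genes was lower late in both genotypes. Beside pie-1 these included pos-1, a posterior cell fate regulator, which had 549 CPM in N2 replicate 2 and 612.4 in FAS43 replicate 1, against 1585 in N2 replicate 1 and 1225 in FAS43 replicate 2. The germline gene nos-2 had 31.4 and 39.2 CPM late against 87.9 and 61.4 early. Of the 30, 2 genes, pie-1 and C41G7.3, were at least 2-fold lower in both genotypes, beside 1.18% of all genes. Thus pie-1, pos-1 and nos-2 separated the sides, whereas mex-5, spn-4 and oma-1 ordered the libraries differently. Of all 13617 genes, 3536 had both early-shifted values above both late-shifted ones.

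The P granule genes, whose products form the germ granules, had a median of 0.50 within N2 and -1.85 within FAS43, with 18 and 1 of 22 members higher. Here pgl-1, a core granule protein, had 88.0 and 57.1 CPM in the late-shifted and early-shifted N2 libraries and 22.96 and 154.4 in those of FAS43, and meg-1 had 104.1 and 61.5 against 26.4 and 179.5; both were chosen after their values were seen. The 14 eggshell genes gave 0.29 within N2 and -1.38 within FAS43, and 12 and 0 of them were higher. The chondroitin proteoglycan gene cpg-1 was among the genes past 2-fold in opposite directions, with 6.39 and 2.98 CPM in N2 and 1.37 and 5.71 in FAS43. Whether these lists differ between the pairs by genotype or by library cannot be told apart, since each genotype has 1 library on each side.

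Early zygotic genes were lower in the late-shifted library of N2, with a median of -1.60 and 1 of 56 members higher. Within FAS43 the median was -0.10 and 23 of 56 were higher. Past 2-fold in both genotypes, 5 of the 56 were lower, beside 1.18% of all genes, and 4 of them were T-box genes: tbx-11, tbx-32, tbx-33 and tbx-37. The endoderm factor gene end-1 had 12.3 CPM in N2 replicate 2 and 42.8 in N2 replicate 1, but 28.5 in FAS43 replicate 1 and 24.3 in FAS43 replicate 2. Early transcribed vet-1 had 142.1 and 445 CPM in N2 and 235.6 and 233.9 in FAS43. N2 replicate 2 was the lowest and N2 replicate 1 the highest library for both genes. Lineage regulators gave -0.36 within N2 and 0.14 within FAS43, and ceh-43, a head homeobox gene, had 129.7 and 276.6 CPM in N2 and 203.1 and 188.7 in FAS43.

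Cell division genes had negative medians in both pairs. The median of 71 replication and cell cycle genes was -0.22 within N2 and -1.15 within FAS43. Of the 71, 4 were at least 2-fold lower in both, beside 1.18% of all genes. These included rnr-2, a ribonucleotide reductase subunit that makes DNA precursors, with 1243 and 1286 CPM late against 2895 and 2734 early, and the Aurora kinase gene air-2 with 117 and 103 against 247.7 and 259.2. The B-type cyclin genes cyb-2.1 and cyb-2.2 completed them, and their counts may be shared because the genes are near-identical. The cyclin gene cyb-3 had 1993 and 916 CPM late against 2868 and 3326 early. Replication-dependent histones had medians of -1.04 within N2 and -0.39 within FAS43 over 32 of 66 annotated members. They are near-identical copies, so single members are uncertain. The embryonic tubulin genes tbb-2, tba-1 and tba-2 were lower in both pairs, tbb-2 with 2042 and 999.2 CPM late against 2992 and 4336 early. The neuronal tubulin genes mec-12 and tba-9 were higher, mec-12 with 37.4 and 26.2 CPM against 12.1 and 15.3.

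**Figure D4:**
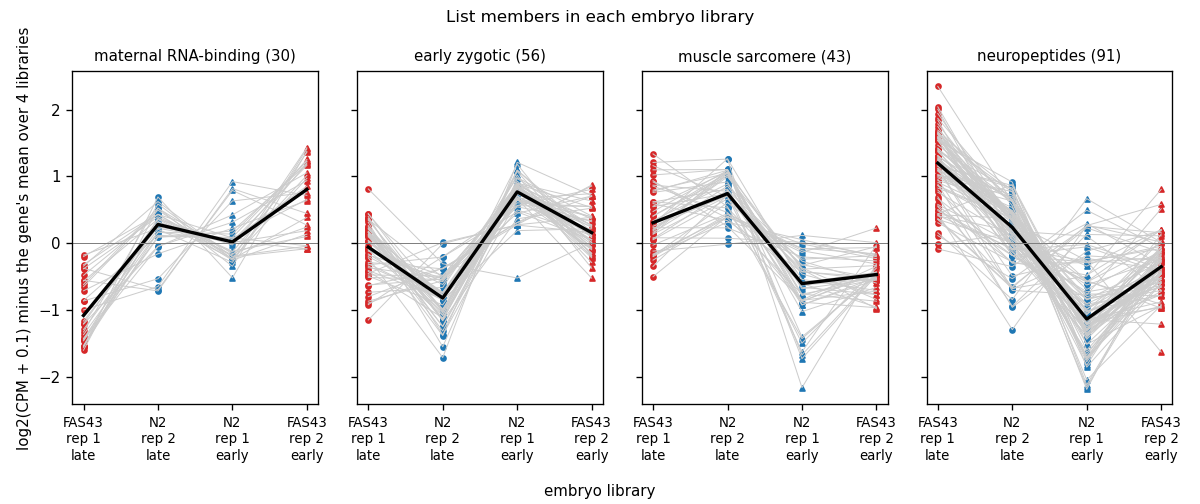
Level of every tested member of 4 gene lists in each embryo library, as log2(CPM + 0.1) minus the gene's own mean over the 4 libraries; points are genes, grey lines join a gene, and black lines join the list medians. Maternal RNA-binding genes are lowest in FAS43 replicate 1 and highest in FAS43 replicate 2, early zygotic genes lowest in N2 replicate 2, muscle genes high in both late-shifted libraries, and neuropeptide genes highest in FAS43 replicate 1.

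Ribosomal protein and heat shock genes ordered the libraries in further ways. Of 79 ribosomal protein genes, 4 were higher in the late-shifted library of N2 and 72 in that of FAS43, with medians of -0.25 and 0.37. Within N2, rpl-12 differed more than the list median, with 1022 CPM in N2 replicate 2 and 2002 in N2 replicate 1. Within FAS43 it differed less than the median, with 1415 and 1377 CPM in the late-shifted and early-shifted libraries. The 24 heat shock genes had medians of 1.02 within N2 and -0.15 within FAS43. The chaperone gene hsp-1 had 1997 CPM in N2 replicate 2 and between 708.2 and 859.9 in the other libraries. The inducible hsp-70, chosen after its values were seen and with near-identical relatives, had 109 CPM in N2 replicate 2, 10.6 in FAS43 replicate 1, 17.3 in N2 replicate 1 and 9.74 in FAS43 replicate 2. For both genes N2 replicate 2 stood alone. Small heat shock genes, hsp-12.2, hsp-12.3, hsp-16.41 and hsp-17, were among the 6 heat shock genes past 2-fold in both genotypes, hsp-17 with 2.48 and 8.82 CPM against 0.894 and 1.36.

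Few genes passed 2-fold in opposite directions. There were 26 genes higher in N2 and lower in FAS43, and 14 with the reverse. The first set, named here after its values were seen, included mex-1 and meg-2 of the germline, hrde-1, which carries inherited small RNA silencing, asns-2, an asparagine synthetase gene, and lea-1, a gene for a desiccation-related protein. In asns-2 the values were 570.3 CPM in N2 replicate 2, 122.5 in FAS43 replicate 1, 152.6 in N2 replicate 1 and 296.7 in FAS43 replicate 2. The values of lea-1 were 355.5, 79.6, 67.0 and 163.5 CPM in the same libraries. N2 replicate 2 was highest for both. Among the 14, the glutathione transferase gene gst-19 had 2.84 CPM in N2 replicate 2 and 7.64 in FAS43 replicate 1, against 7.001 and 2.356 early.

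The genes higher in the late-shifted libraries were spread unevenly over the chromosomes. These genes were picked by the split, and 290 of the 1670 had under 10 counts in both early-shifted libraries. The part of low levels in the chromosome shares was not tested. The higher genes made up 18.1% of the tested genes on the X chromosome, 16.9% on chromosome V, 13.4% on IV and 11% on II, but 7.66% on III and 6.46% on I. None of the 14 mitochondrial genes tested was among them. Genes lower in both genotypes made up between 0.84% of X and 1.39% of I. The higher genes had a median exon length of 1137 bases, the lower genes 1280 and all genes 1401. Their median mean level was 2.53 CPM, against 35.8 for the lower genes and 19.7 for all genes, and 1366 of the 1670 belonged to none of the lists described here.

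The same genes were set beside the later stage of the series. L1 larvae were compared with embryos by edgeR's quasi-likelihood test on the mean of the L1 groups minus the mean of the embryo groups. The test used 13335 genes present in both tables and 4 residual degrees of freedom. The embryo libraries are shared with the split, so the values stand side by side and are not independent. In L1, 3847 genes rose (28.8%) and 3298 fell (24.7%). Of the 12 top higher genes, 10 rose in L1. The largest change was that of dod-19, by 5.03 on the log2 scale (SE 0.652, adjusted p = 1.68e-05), and its L1 levels were 176.3 and 257.2 CPM in FAS43 and 301.2 and 259 in N2. The exceptions were clec-230, with a log2 difference of -0.05 (SE 0.768, adjusted p = 0.958), and wrt-8, with -0.07 (SE 0.739, adjusted p = 0.942). The L1 levels of clec-230 were 12.8 and 2.38 CPM in FAS43 and 3.60 and 12.7 in N2, which overlapped its embryo levels. All 12 top lower genes fell in L1, the largest adjusted p being 0.0137. Of these, pie-1 fell by 2.36 (SE 0.472, adjusted p = 0.00052) and tbx-11 fell by 3.23 (SE 0.487, adjusted p = 5.41e-05).

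By list, beside 28.8% of all genes higher and 24.7% lower, neuropeptides had 85 of 90 tested members higher in L1 and 0 lower. Neurotransmitter genes had 18 of 19 and 0. Muscle genes had 30 of 43 higher and 0 lower, unc-22 with a rise of 3.95 (adjusted p = 0.00017). Of 37 transthyretin-like genes, 27 rose and 3 fell. Cuticle genes divided: of 94 collagens 51 rose and 5 fell, col-113 rising by 3.78 (adjusted p = 7.78e-05), whereas 0 of 5 furrow collagens rose and 4 fell, and dpy-7 fell by 1.71 (adjusted p = 0.0185). Precuticle genes had 8 of 57 higher and 21 lower, and noah-1 fell by 1.82 (adjusted p = 0.0125). The furrow collagen and precuticle lists thus had positive medians within both embryo pairs and negative medians in L1, at -1.54 and -0.91. Among early genes, 44 of 46 early zygotic genes fell, as did 65 of 71 cell cycle genes. Maternal RNA-binding genes fell less often, with 11 of 30 lower and 2 higher, beside the 24.7% of all genes that fell. P granule genes had 6 of 22 lower and eggshell genes 1 of 14, with 0 higher in either list. Ribosomal protein genes had 70 of 79 members higher in L1.

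Genotype was tested over the same 4 embryo libraries. In edgeR's quasi-likelihood test with genotype alone, with 2 residual degrees of freedom, 1 gene was higher in FAS43 and 2 were lower at an adjusted p under 0.05 (0.022% of genes). The lower genes were the H3.3 genes his-72 and his-71. In the library order N2 replicate 2, N2 replicate 1, FAS43 replicate 1 and FAS43 replicate 2, his-72 had 1011, 2213, 1.37 and 1.28 CPM, so the targeted gene was as labelled in every library. For his-71 the N2 libraries had 98.4 and 89.8 CPM and the FAS43 libraries 0.0943 and 0.12. The third tested H3.3 gene, his-74, kept 63.5 and 82.4 CPM in the FAS43 libraries, where N2 had 47.04 and 133.6, so counts alone do not check the his-74 allele. The higher gene was Y75B8A.33 on chromosome III (WBcel235, 12361838 to 12367373), next to his-72 (12367475 to 12369050), both on the minus strand. Its levels were 279 and 269.1 CPM in FAS43 against 1.08 and 0.931 in N2.

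With the side entered as a term, 16 genes were higher in FAS43 and 2 lower (0.132%). This fit has 1 residual degree of freedom, and its side term was taken from these data, so its calls are less certain. All 16 higher genes had their highest level in FAS43 replicate 1. Apart from Y75B8A.33 and Y49E10.36, they were genes with low levels in the other 3 libraries. Y49E10.36 is a small nucleolar RNA gene inside his-72, and how reads over both genes were assigned was not given. It had 8 and 3 counts in N2 replicates 2 and 1 and 37 in each FAS43 library, opposite in direction to his-72. C45B2.2 had 20.5 CPM in FAS43 replicate 1, 2.40 in FAS43 replicate 2, 1.52 in N2 replicate 2 and 0.447 in N2 replicate 1, with a log2 difference between genotypes of 3.17 (SE 0.62, edgeR adjusted p = 0.00073). The hedgehog-related gene grl-21 had 16.6, 0.878, 1.56 and 0.186 CPM in the same order, with 3.01 (SE 0.643, edgeR adjusted p = 0.00556). Both rest on FAS43 replicate 1: with no side term, the genotype difference of C45B2.2 was 3.54 over all 4 libraries and 1.28 without that library, and that of grl-21 was 3.32 and 0.01. For these low genes FAS43 replicate 2 lay below the late-shifted N2 library, so that the genotypes overlapped once the sides were ignored, except for C45B2.2, lys-3, gst-38 and lips-6. The others named by rank of p were the transthyretin-like genes ttr-26 and ttr-33, the lysozyme gene lys-3, the glutathione transferase gene gst-38, ZK970.7, C50F7.5, F22H10.2 and F59A6.10. C49G7.10, grd-14, the lipase gene lips-6 and nspb-12 passed as well. In L1, Y75B8A.33 and Y49E10.36 were again higher in both FAS43 libraries, with 943.9 and 1194 CPM for the first of them against 2.22 and 2.56 in N2. C45B2.2 had another order, with 77.6 and 100.1 CPM in FAS43 L1 and 143.8 and 282.8 in N2 L1. How the difference between the sides depends on genotype could not be tested, since such a fit leaves 0 residual degrees of freedom.

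**Figure D5:**
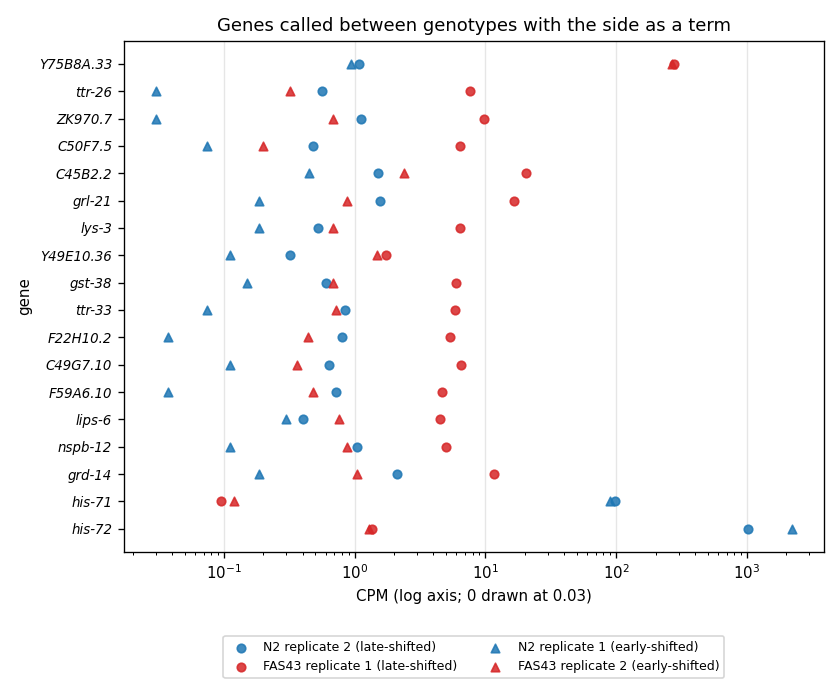
CPM on a log axis (0 drawn at 0.03) of the 18 genes called between genotypes with the side as a term; each point is 1 library, blue for N2 and red for FAS43, circles for late-shifted and triangles for early-shifted. his-71 and his-72 separate the genotypes without overlap, Y75B8A.33 separates them in the other direction, and most of the others are high in FAS43 replicate 1 alone.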

How the data were processed

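Per the labels' protocols, stranded mRNA libraries were sequenced, and the authors deposited one table of raw counts per gene for each stage. The build WBcel235 and the tools edgeR 3.10.5, HTSeq 0.6.1 and TopHat2 2.0.13 are named per the submitters' processing notes; what each did, and with which strand setting, was not given in the sources used here. Other deposited columns were not used. Counts were fitted with edgeR 4.0.16 in R 4.3.3 (filterByExpr, TMM, quasi-likelihood F-test, Benjamini-Hochberg, adjusted p under 0.05); SE is the absolute log2 difference over the square root of F. DESeq2 1.42.0 was an alternative. Differences between the sides are log2 CPM (prior count 2) within a genotype. Embryo totals of 17408914 to 30127179 counts limit low genes. Named were the 12 genes at either end by the smaller difference (mean CPM at least 5), list members by mean CPM or difference, and genes called with the side as a term by p. The members, lists and tests were chosen with earlier results of these data known. Procedures were tested on simulated data. Coordinates are from the Ensembl annotation of WBcel235, which held 13581 of the 13692 embryo genes.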

Additional observations from a re-analysis of the deposited data

Results flagged for a closer look

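In 4 gene lists the N2 and FAS43 pairs had late-shifted minus early-shifted medians of opposite sign; the difference between the pairs was not tested. Maternal RNA-binding genes had log2 medians of 0.3459 within N2 and -1.872 within FAS43. P granule genes had 0.4958 and -1.846, and eggshell genes had 0.2898 and -1.382. For these 3 lists the late-shifted N2 library was the higher one and the late-shifted FAS43 library the lower one. Insulin-like genes went the other way, with -0.2998 within N2 and 0.5903 within FAS43 over 11 tested of 39 annotated. Among them, the insulin-like gene ins-2 had 17.5 CPM in N2 replicate 2, 34.9 in FAS43 replicate 1, 25.6 in N2 replicate 1 and 18.1 in FAS43 replicate 2. Groups of 2 libraries are too small for a check of single libraries that stand apart.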

How the results depend on the processing

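The cause of each change below was not tested. Genes higher in both genotypes numbered 532 at a mean of at least 5 CPM, a filter chosen after seeing the data, and the pairs taken alone gave 2281 to 3212 higher and 1653 to 2297 lower. Genes higher in FAS43 numbered 16 with the side as a term and 12 in DESeq2 with the side, an alternative chosen after seeing the data. Leaving out 1 library gave 1 to 21 higher (21 without N2 embryo replicate 2) and 2 to 5 lower (5 without N2 embryo replicate 1), and 3069 to 3896 higher and 2281 to 3427 lower for L1 against embryo. Labels share replicate numbers only: the correlation of same-numbered deviations across genes was -0.42 in embryos and -0.13 in L1. The replicate block gave 1 higher and 2 lower between genotypes and 3627 higher and 2956 lower in L1. Crossing the numbers in embryos equals the side as a term, with 16 higher and 2 lower. List medians over both pairs changed sign with DESeq2 size factors for chemoreceptors (-0.001702) and ribosomal proteins (-0.04298), and at a mean of at least 5 CPM for insulin-like (-0.07293), detoxification (-0.1536) and tubulin genes (-0.3209). Within the single pairs the medians were -1.872 and 0.3459 (maternal RNA-binding), -1.382 and 0.2898 (eggshell), -1.846 and 0.4958 (P granule), -0.2998 and 0.5903 (insulin-like), -0.1139 and 0.1856 (chemoreceptors), -0.2489 and 0.3714 (ribosomal proteins), -0.3648 and 0.1415 (lineage regulators), -0.1493 and 1.019 (heat shock), -0.1049 and 0.6868 (sperm), and 0.06018 and 0.1495 (all genes), lower value first. The genotype difference with no side term was lowest without FAS43 embryo replicate 1, at -0.455 for C50F7.5, -0.05709 for C49G7.10 and -0.1478 for grd-14, and at most 5.578, 5.082 and 5.259 without any other single library. For L1 against embryo, clec-230 gave 0.7751 and wrt-8 0.5304 with the side as a term, and -0.8347 to 1.452 and -0.9428 to 1.012 without single libraries. Without a filter on low counts the L1 test kept the same 13335 genes. Depth limits the low genes: 290 of the 1670 higher genes had under 10 counts in both early-shifted libraries.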
